A study of Notamacropus eugenii with 7 samples.

Results

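The 5 rows of the tammar wallaby small RNA table described here are miR-146a, miR-146b, miR-21, miR-181b and the joint row miR-181c#miR-181a, in which the reads of miR-181c and miR-181a are given together. They were chosen by name from the 346 rows of the table, of which 102 were listed in at least 1 library, and all 5 were listed in each of the 7 libraries. The libraries came from milk of lactating females of this marsupial at days 35 and 75 of lactation (phase 2A, when the young stays fixed to the teat), at days 120 and 175 (phase 2B) and at day 250 (phase 3), and from blood serum of lactating mothers at days 120 and 175. Neither a treatment nor a genotype separates the samples, all females were in lactation, and no sample of a female outside lactation was analysed here. According to the methods of the study, the milk of several females was pooled at each time point, oxytocin was given to induce milk letdown, and fat and cells were spun out before RNA isolation. The study states that serum at days 120 and 175 came from females also used for the milk of these days. For serum, the methods name another isolation kit than for milk, so that fluid and kit cannot be told apart. Each value is the percent of the annotated miRNA reads of its library, rounded by the authors to 3 decimals. It is called the share below.

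The miR-146, miR-21 and miR-181 families are best known as regulators of immune responses. MiR-146a and miR-146b share a seed, the short stretch near the 5′ end with which a miRNA recognises its targets. They come from separate genes and act as a brake on Toll-like receptor signalling by repressing the adaptors IRAK1 and TRAF6. MiR-146a is induced through NF-κB. MiR-21 rises in activated leukocytes and in many growing or inflamed tissues, and represses PDCD4. The miR-181 members also share a seed. In mammals miR-181a and miR-181b are transcribed from common clusters, as are miR-181c and miR-181d, and miR-181a tunes the sensitivity of the T cell receptor during thymocyte development.

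The listed shares summed to between 95.8% and 99.6% per library, the lowest sum being that of day 175 milk. As values are shares of 1 library, a change in an abundant miRNA moves all the others. MiR-191 and miR-10b together took most of both serum libraries, where miR-10b alone stood at 69.2% and 55.4%. In milk, miR-191 took 40.4%, 28.0%, 43.8%, 9.66% and 15.5% from the earliest to the latest day. Each comparison was therefore also made on a reduced total, which is the percent of reads other than those of miR-10b and miR-191, and on the centred log ratio, in which every share is divided by the geometric mean of a fixed set of miRNAs. Epithelial miRNAs (4 of 5 on the list were found under their names, while miR-205 appears as miR-205a, at no more than 0.005% in any library, and is not in the sum) summed to between 0.742% and 6.50% in milk and to 0.009% and 0.024% in serum. Leukocyte miRNAs (3 of 4 found, miR-155 not listed) summed to at most 0.008% in milk and to 0.041% and 0.120% in serum. Read counts are not given in the values, the depth of the libraries is unknown from them, and read totals in the text of the study were not used here. There is 1 library per fluid and day, so differences between days carry no replicate error. The error given for a single share is the rounding, 0.0005 percentage points either way, and it leaves out counting error. A lower share cannot be told apart from a larger amount of other miRNAs.

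Summed over the 5 rows, the milk shares were 7.71%, 8.07%, 5.85%, 9.25% and 6.96% from the earliest to the latest day, against 4.22% and 4.79% in serum at days 120 and 175. Most of this was the joint row of miR-181c and miR-181a, which made up between 61.6% (milk, day 175) and 93.4% (milk, day 75) of the sum. Its part was lowest in the day 175 milk, in which miR-21 alone stood at 3.035%.

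**Figure D1:**
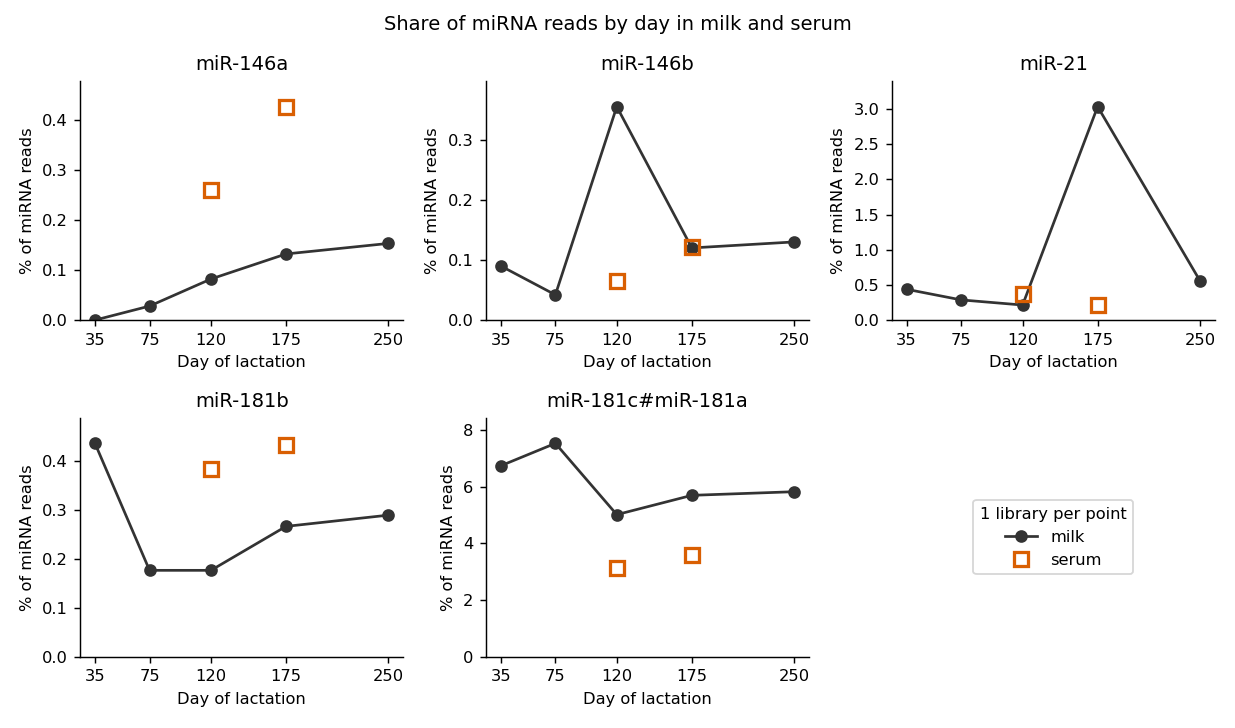
Share of annotated miRNA reads (y axis, percent, from 0) against the day of lactation (x axis) for each of the 5 rows, with 1 point per library, milk as filled circles joined by a line and serum as open squares. MiR-21 stands at 3.035% in day 175 milk and at or below 0.559% elsewhere, miR-146b stands at 0.355% in day 120 milk, and every milk point of miR-146a lies below its serum points.

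MiR-21, the repressor of PDCD4, was a minor component of milk on most days and rose at day 175. Its share of milk miRNA reads was 0.438%, 0.287% and 0.214% on the first 3 sampled days, 3.035% at day 175 and 0.559% at day 250. The serum shares were 0.375% (day 120) and 0.212% (day 175). Thus 1 milk library stood above all other libraries, the remaining 4 milk values lay between 0.214% and 0.559%, and milk and serum overlapped. The rank of miR-21 in milk went from 21 of 58 listed miRNAs at day 120 to 12 of 81 at day 175 and 14 of 86 at day 250.

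The step of miR-21 from day 120 to day 175 was 14.2-fold upward, and rounding leaves it between 14.1 and 14.2. It was the fifth largest rise (rank 5) among the 56 miRNAs with at least 0.001% on both days. This step was upward for most miRNAs, with a median log2 change of 0.68, and 57.1% of the 56 moved past 2-fold in either direction, as did 2 of the 5 rows. The log2 step of miR-21 was 3.83, or 3.15 above that median. On the other scales the step was 3.11 (reduced total) and 2.94 (centred log ratio). From day 175 to day 250 the share of miR-21 fell 5.43-fold, a log2 change of -2.44 where the median of 67 miRNAs was -0.64. Past 2-fold in either direction were 53.7% of the 67, and 1 of the 5 rows. On the centred log ratio the log2 change of miR-21 was -1.37, and the other 4 rows passed 2-fold upward, with log2 changes between 1.10 and 1.28, as did 40.3% of the 67. That scale adds 1.07 to the log2 change of all miRNAs in the median at this step. In serum, where 34.9% of 63 miRNAs changed past 2-fold between days 120 and 175 and none of the 5 rows did, the share of miR-21 was 1.77-fold lower at day 175.

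Marker sums also changed from day 120 to day 175, a step at which 57.1% of 56 miRNAs moved past 2-fold in either direction. Of the sums given here, those of red blood cells and epithelium rose, while that of leukocytes fell. Red blood cell miRNAs (miR-451 and miR-144 found, miR-486 not listed) summed to 0.002% in milk at day 120, 0.047% at day 175 and 0.009% at day 250, with 0.042% and 0.055% in serum. The epithelial sum was 1.31%, 6.50% and 4.48% on the same milk days, and the leukocyte sum 0.008%, 0.002% and 0.002%. The listed shares of day 175 milk left 4.18% of the total open, and what makes up this rest is not given. The part of all these values in the rise of miR-21 was not tested.

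MiR-146b, the less abundant of the miR-146 pair in serum, was highest in milk at day 120. Its milk shares in order of day were 0.090%, 0.042%, 0.355%, 0.120% and 0.130%, and its serum shares 0.065% and 0.121%. The day 120 milk value stood alone, and the other milk values enclosed those of serum. From day 75 to day 120 miR-146b rose 8.45-fold, the largest rise (rank 1) among 54 miRNAs with at least 0.001% on both days, whose median change was 0.00 on the log2 scale. Of these 54, 48.1% moved past 2-fold in either direction, as did 2 of the 5 rows, miR-146a being the other. From day 120 to day 175, against the general upward shift, miR-146b fell 2.96-fold, and the log2 change was -1.56 as deposited and -2.44 on the centred log ratio. From day 35 to day 75 it was 2.14-fold lower, a step at which 45.2% of 42 miRNAs, and 2 of the 4 rows with a fold, moved past 2-fold in either direction. On the centred log ratio this step of miR-146b, with a log2 change of -0.82, did not pass 2-fold, nor did it with 0.01 as pseudocount (-0.94).

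MiR-146a, the other brake on Toll-like receptor signalling, followed a different course. It was listed at 0 in the day 35 milk, and its later milk shares were 0.028%, 0.082%, 0.132% and 0.153% in order of day. The serum shares were 0.259% and 0.426%. Each milk value was higher than that of the day before, and all 5 were below both serum values. The entry of 0 stands for a low level, below 0.0005% if the authors rounded it as the others, and 6 of the 48 miRNAs listed in that library have it. No fold is given against it. From day 75 to day 120 miR-146a rose 2.93-fold. The later steps were 1.61-fold and 1.16-fold upward. The step from day 120 to day 175 equalled the median of all miRNAs, with a log2 change 0.01 above it, and was slightly downward on the reduced total (log2 change -0.03) and on the centred log ratio (-0.20). The rise at each step from day 75 on thus holds for the deposited shares, and for this one step not on the other scales.

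MiR-181b, which shares the seed of the other miR-181 members, was highest in milk at day 35. Its milk shares in order of day were 0.437%, 0.177%, 0.177%, 0.267% and 0.290%, against 0.384% and 0.434% in serum. The day 35 value lay just above serum, and the 4 later milk values below it. The step from day 35 to day 75 was 2.47-fold downward. No later step of the deposited share was above 1.51-fold, while its last step, to day 250, had a log2 change of 1.19 on the centred log ratio.

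The joint row of miR-181c and miR-181a took 6.74%, 7.53%, 5.02%, 5.70% and 5.83% of milk miRNA reads in order of day, and 3.14% and 3.59% of those in serum. The highest milk share was 1.5-fold the lowest. Among 40 miRNAs that reached 0.001% in all 5 milk libraries this was the smallest range (rank 1), the median range being 7.40-fold. Its range was 1.81-fold, at rank 3 of 38, on the reduced total, and 2.74-fold, at rank 8, on the centred log ratio. MiR-181b was also among the less variable, with a range of 2.47-fold at rank 4 of the 40. MiR-146b was at rank 22 and miR-21, with 14.2-fold, at rank 31. The order of these 2 turned on the reduced total, with 11.3-fold for miR-146b and 8.64-fold for miR-21, and on the centred log ratio they had 7.36-fold and 7.66-fold. MiR-146a has no range of this kind, as it was listed at 0 at day 35. The separate rows of miR-181a, miR-181a-2, miR-181c and miR-181d were listed in none of the 7 libraries, so how the joint row divides between miR-181c and miR-181a is not known.

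**Figure D2:**
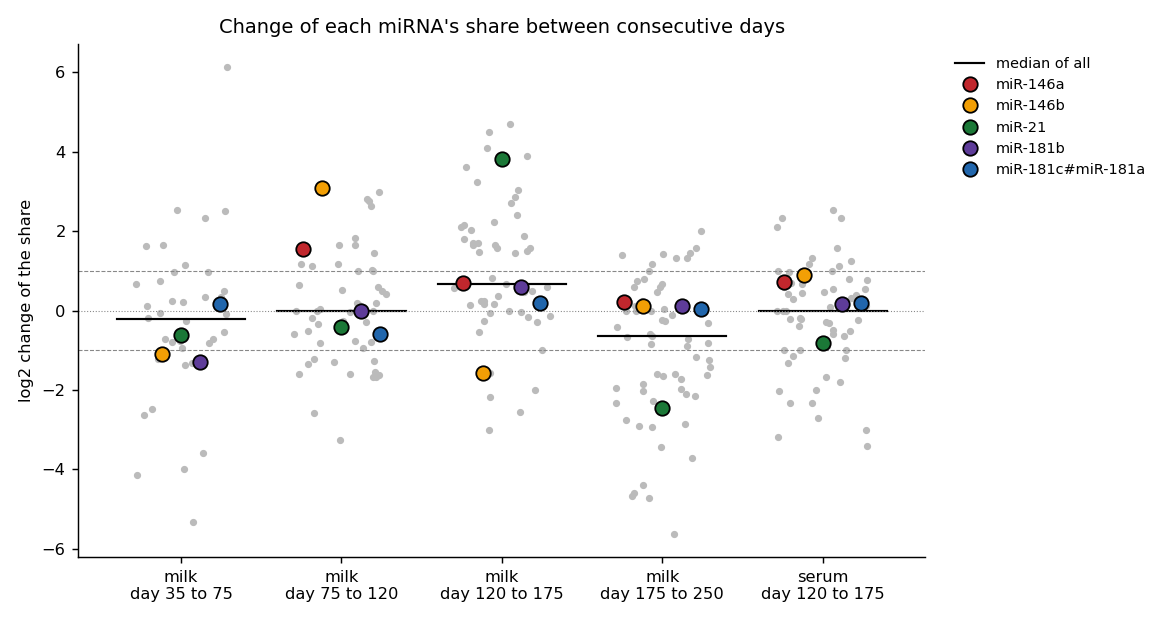
Log2 change of the share (y axis) between consecutive days in milk and from day 120 to day 175 in serum (x axis), for all miRNAs of at least 0.001% on both days (grey points, spread sideways for clarity), their median (black line) and the 5 rows (coloured). Dashed lines mark 2-fold. MiR-146b lies at the top of the step from day 75 to day 120 with a log2 change of 3.08, and miR-21 at 3.83 in the next step, where the median of all is 0.68.

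In the comparison of fluids, which asks how far milk and maternal blood resemble each other, none of the 5 rows passed the test. Limma was run on log2 of the share plus 0.001, with the milk of days 120 and 175 set against serum of these days, so that the days stand in for replicates and the spread holds the difference between days. Of 75 miRNAs tested 15, or 20.0%, had a Benjamini-Hochberg adjusted p under 0.05, and 0 of the 5 rows, of which 0 had an unadjusted p under 0.05. With the day as a replicate block, since the fluids of a day share females, 0 of the 75 passed. An unadjusted p under 0.05 was found for 21, the same number as without the block. These 21 include miR-146a (limma with the block, unadjusted p = 0.041, adjusted p = 0.18). The block leaves 1 residual degree of freedom, as does leaving out any 1 of the 4 libraries, after which 0 passed and 14 to 24 had an unadjusted p under 0.05, so these fits do not show whether the calls are stable. The median log2 difference of the 5 rows was 0.67, and that of all tested miRNAs 0.08.

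The log2 difference of milk minus serum was -1.67 for miR-146a (standard error 0.84, limma adjusted p = 0.25). For miR-181b it was -0.91 (standard error 0.78, limma adjusted p = 0.45). MiR-146b had 1.21 (standard error 0.95, limma adjusted p = 0.41), and miR-21 had 1.51 (standard error 1.29, limma adjusted p = 0.45). The joint row of miR-181c and miR-181a had 0.67 (standard error 0.44, limma adjusted p = 0.35). Each difference was thus less than its double standard error. The direction for miR-21 rests on the day 175 milk, without which the log2 difference was -0.40, and without the day 120 milk it was 3.42. That for miR-146b was 1.99 and 0.43 in the same cases.

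The outcome for miR-146a and miR-181b depended on the scale. On the reduced total all log2 differences were lower by 1.29 in the median, and miR-146a had a difference of -2.97 (limma adjusted p = 0.016) and miR-181b of -2.20 (limma adjusted p = 0.040), where 31.5% of 73 miRNAs were called and 15.1% were called lower in milk. On the centred log ratio, which lowered them by 0.95 in the median, miR-146a had -2.61 (limma adjusted p = 0.010) and miR-181b -1.85 (limma adjusted p = 0.074), where 36.0% of 75 were called and 21.3% were called lower. Over all settings tried the limma adjusted p of miR-146a ranged from 0.010 to 0.53 and that of miR-181b from 0.040 to 0.61. The difference of the joint row of miR-181c and miR-181a turned from 0.67 to -0.63 and -0.28 on these 2 scales, and that of miR-146b from 1.21 to -0.08 on the reduced total.

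On each day by itself, the milk share of miR-146a was 3.16-fold below its serum share at day 120 and 3.23-fold below it at day 175. MiR-181b was 2.17-fold and 1.63-fold lower. The joint row of miR-181c and miR-181a was higher in milk by 1.60-fold and 1.59-fold. For these 3 rows the ratio of the deposited shares moved by less than 1.5-fold between the days, and for the other 2 by more. These 3 stayed under 1.5-fold on the reduced total too. On the centred log ratio all 5 moved by more, the log2 ratio going from -2.07 to -3.16 for miR-146a, from -1.53 to -2.17 for miR-181b and from 0.25 to -0.81 for the joint row. MiR-146b was 5.46-fold higher in milk at day 120, while at day 175 its milk to serum ratio was 0.992, which rounding does not separate from 1. MiR-21 was 1.75-fold lower in milk at day 120 and 14.3-fold higher at day 175. Past 2-fold in either direction were 3 of the 5 rows at day 120, against 65.5% of 55 miRNAs with at least 0.001% in both fluids, and 2 of the 5 at day 175, against 70.3% of 64. Over both days 8 of the 10 ratios of the rows passed 2-fold on the reduced total, against 72.2% of 115, and 8 of 10 on the centred log ratio, against 70.6% of 119. The ratios of all miRNAs had a median log2 of -0.07 at day 120 and of 1.19 at day 175.

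**Figure D3:**
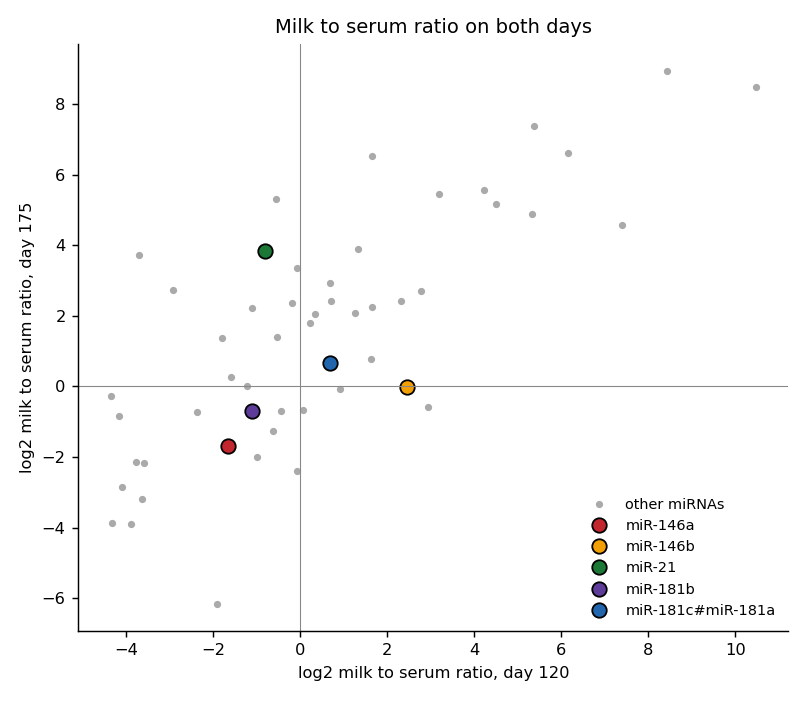
Log2 ratio of the milk share to the serum share at day 120 (x axis) and at day 175 (y axis) for the 52 miRNAs of at least 0.001% in all 4 libraries, the 5 rows in colour and the others in grey. MiR-146a, miR-181b and miR-181c#miR-181a lie near equal values of the deposited shares on both days, while miR-21 changes from -0.81 to 3.84 and miR-146b from 2.45 to -0.01.

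With all 5 milk and 2 serum libraries, 2 of the 5 rows had no overlap between fluids, against 31.8% of 85 miRNAs. These were miR-146a, lower in milk as were 15.3% of the 85, and the joint row of miR-181c and miR-181a, higher in milk as were 16.5%. In an exact permutation test over 21 assignments the two-sided p for the joint row was 0.048, the smallest that this design allows, with a mean log2 difference of 0.86 and a Benjamini-Hochberg adjusted p of 0.19 over the 85 miRNAs. For miR-146a the mean log2 difference was -3.27 and the exact permutation p 0.24, the mean over milk including the day 35 entry of 0. Without day 35 the difference was -1.99, with an exact permutation p of 0.13 where the smallest of 15 assignments is 0.067. With day 35 it was -2.50 with 0.01 as pseudocount (exact permutation p = 0.095) and -3.48 with 0.0005 (exact permutation p = 0.24). For miR-181b, miR-146b and miR-21 the exact permutation p was 0.19, 0.62 and 0.48. On the reduced total miR-146a, miR-181b and the joint row were all lower in milk without overlap, in a background of 42.2% of 83 miRNAs, with 30.1% lower in milk. On the centred log ratio miR-146a and miR-181b were, in a background of 48.2% of 85, with 36.5% lower in milk. Both scales thus tilt the miRNAs without overlap toward lower values in milk. Of the 5 rows, miR-146a was thus the one whose milk values lay below both serum values on all 3 scales. Of the cell type markers, the leukocyte sum given above and endothelial miR-126 were below both serum values in all milk libraries. MiR-126 was at most 0.007% in milk and 0.034% and 0.050% in serum. The fluids overlapped for the muscle miRNAs miR-1 and miR-133a, which summed to at most 0.004% in milk and to 0.017% and 0.003% in serum. They also overlapped for the red blood cell sum given above and for liver miR-122. MiR-122 had between 0.001% and 0.040% in milk, and 0.096% and 0.009% in serum. The epithelial sum was higher in milk. The part of these markers in the lower share of miR-146a was not tested.

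Paralogs were compared within a library, since the ratio of 2 rows does not depend on the denominator. MiR-146a to miR-146b stood at 0.667, 0.231, 1.10 and 1.18 in the milk of days 75, 120, 175 and 250. At day 35 miR-146a was listed at 0 beside 0.090% of miR-146b, and the ratio was at most 0.0056 by rounding. In serum the ratio was 3.98 and 3.52. MiR-146b was therefore the more abundant paralog in milk up to day 120, both were close to equal at days 175 and 250, and miR-146a took 79.9% and 77.9% of the pair in serum. The serum ratios differed 1.13-fold from each other, and the milk ratios of days 75 to 250 differed up to 5.10-fold.

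MiR-181b to the joint row of miR-181c and miR-181a was 0.0648, 0.0235, 0.0353, 0.0469 and 0.0498 in milk from day 35 to day 250. The serum ratios were 0.122 and 0.121. They were nearly equal, and the milk ratios differed by up to 2.76-fold. MiR-181b took 10.9% and 10.8% of the listed miR-181 reads in serum, and between 2.30% and 6.09% in milk.

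Both ratios were thus without overlap between the fluids, with all milk values lower. The mean log2 ratio of miR-146a to miR-146b was 3.65 lower in milk, at -1.76 (SD 2.81, 5 libraries) against 1.89 (2 libraries), with an exact permutation p of 0.14. Without day 35 it was 2.47 lower (exact permutation p = 0.067, the smallest of 15 assignments). The day 35 entry of 0 takes its value from the pseudocount. With day 35, the difference was -2.87 with 0.01 as pseudocount (exact permutation p = 0.095) and -3.86 with 0.0005 (exact permutation p = 0.24). The mean log2 ratio of miR-181b to the joint row was 1.54 lower in milk, at -4.58 (SD 0.56, 5 libraries) against -3.04 (2 libraries), with an exact permutation p of 0.048, the smallest of 21 assignments, and 0.095 after adjustment over both ratios. Neither passes the correction. A ratio without overlap between fluids is common in these data, as 44.2% of the 3570 pairs among the 85 miRNAs had one.

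**Figure D4:**
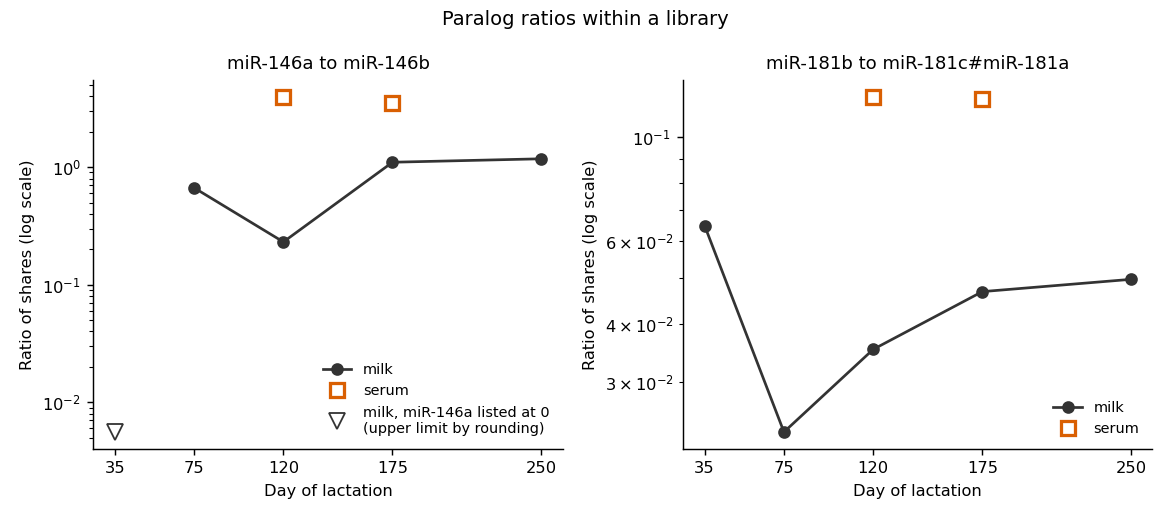
Ratio of the shares of paralogs (y axis, log scale) against the day of lactation (x axis), with 1 point per library, milk as filled circles and serum as open squares. The open triangle is the rounding limit where miR-146a was listed at 0. In both families every milk ratio lies below the serum ratios, which stand at 3.98 and 3.52 (miR-146) and at 0.122 and 0.121 (miR-181).

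The 5 rows were not alike in their course over the 7 libraries. The Pearson correlation of their log2 shares was at most 0.24 between any pair (miR-21 with the joint row of miR-181c and miR-181a). It was lowest, at -0.67, between miR-146a and the joint row. The value was 0.19 between the miR-146 paralogs and -0.48 between miR-181b and the joint row. Over the 5 milk libraries alone the pairs ran from -0.96 (miR-146b with the joint row) to 0.36 (miR-146a with miR-146b). Among 63 other miRNAs with at least 0.001% in at least 4 libraries, those most like miR-146a were miR-221 (0.93), miR-27b (0.93) and miR-125b (0.87), of which miR-221 and miR-125b were likewise listed at 0 at day 35. Those most like miR-21 were miR-15a (0.87), miR-143 (0.86) and miR-101 (0.73), all 3 highest in day 175 milk. For miR-181b they were miR-222a (0.75), miR-122 (0.67) and miR-25 (0.60), and for the joint row miR-26 (0.91), let-7d (0.90) and let-7f (0.89). The latter 3 were low in both serum libraries, and over the 5 milk libraries alone their correlation with the joint row was 0.32, -0.14 and 0.31. MiR-146b had no close match, the highest values being 0.51 with miR-375, 0.35 with miR-183 and 0.32 with miR-191. All are descriptions over 7 libraries of 2 fluids, whose shares are tied to common totals.

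Of 22 other miRNAs known for roles in immune cells or inflammation, 18 were listed in at least 1 library and 13 could be tested between the fluids at days 120 and 175. Among these 13, 10 had a lower mean log2 share in milk, 2 a higher one and 1 the same, where 44.0% of all 75 tested were lower, with a median log2 difference of -1.0 against 0.08 for all 75. For miR-150, miR-187, miR-27a and miR-29a only serum reached 0.001% on both days, which was enough to pass the filter on low values. This favours a lower value in milk, and the tally and the median include these miRNAs. The test called 1 of the 13 lower, and 4.0% of the 75. MiR-150, a miRNA of mature lymphocytes, was lower in milk by this test (limma adjusted p = 0.030), its log2 difference being -4.08 with a standard error of 1.03. With 0.01 as pseudocount the difference was -1.72 and the limma adjusted p 0.078, without the filter on low values the limma adjusted p was 0.15, and over all settings in which it could be tested it ranged from 0.00013 to 0.23. It was listed in milk at day 175 only among those days, at 0.001%, against 0.011% and 0.047% in serum. Its serum values thus carried it past the filter, and the test could hardly have come out higher in milk. Nothing is concluded from this call. None of the 13 was called higher in milk. MiR-223, of neutrophils and monocytes, and miR-125b, which represses TNF, were lower in milk past 2-fold on both days, 2 of the 8 of the list with at least 0.001% in all 4 libraries, against 15.4% of 52 miRNAs. MiR-223 took 0.008% and 0.001% in milk and 0.030% and 0.072% in serum (limma adjusted p = 0.056). MiR-125b took 0.002% and 0.006% in milk and 0.025% and 0.055% in serum (limma adjusted p = 0.056). MiR-155, the miRNA of activated lymphocytes and macrophages that is often set beside miR-146a, was not listed in any library, nor were miR-125a, miR-9 and miR-24.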

How the data were processed

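Small RNA of pooled skim milk (5 libraries) and of serum (2 libraries) was sequenced on an Illumina HiSeq. The authors cleaned and trimmed the reads and assigned them to miRNAs of miRBase version 19 with miRanalyzer. The deposited values are percent of the annotated miRNA reads of each library, rounded to 3 decimals, with empty entries for absent miRNAs and 0 for low ones. Both were taken as 0 where 0.001 was added before log2. Columns of samples that were not used numbered 0. Days are those of the sample labels, from which the text of the study differs slightly for the samples labelled 120 and, in its results but not in its methods, for the one labelled 75. The series record mentions a duplicate of day 175, and whether the values include it is not known.

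Limma 3.58.1 in R 4.3.3 (mean-variance trend, Benjamini-Hochberg adjustment) compared 2 milk with 2 serum libraries for 75 miRNAs that reached 0.001% in 2 or more of them. Exact two-sided permutation tests compared 5 milk with 2 serum libraries for 85 miRNAs that reached 0.001% in 2 or more of 7. Python 3.11.15 with numpy 2.4.6, pandas 2.3.3 and matplotlib 3.10.9 did the rest. Folds between days have no test, and a limit of 2-fold was used. Tested on simulated data for the limma comparison, with 20 of 75 miRNAs changed 16-fold at an SD of 0.7 on the log2 scale, 98.9% were recovered with 0.74 false calls per run over 50 runs. The same SD was used for every miRNA. The log2 differences of the 5 rows lay between -1.67 and 1.51, which is well short of 16-fold. The simulation therefore does not tell how often differences of their size would be called. The smallest p of 5 against 2 libraries is 0.048, so an adjusted value could pass 0.05 only if nearly all miRNAs were at that p, and 0 passed. The centred log ratio used 40 miRNAs for all libraries or for milk, 63 for serum and 52 for the 4 libraries of days 120 and 175.

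Alternatives, of which limma without a mean-variance trend was chosen after seeing the data, were other pseudocounts, filters, denominators and fold limits, each library left out, and the day as a block. The day pairs milk with serum, as the study took both fluids from the same females, although the changes from day 120 to day 175 in the fluids correlated at -0.12 over 75 miRNAs. The rows and lists were chosen with earlier results of these data known. The miRNAs named are the 5 rows, other rows of their families, the 3 miRNAs most correlated with each, miR-10b and miR-191, and markers of cell types. From the list of other immune-related miRNAs, those past the test or past 2-fold on both days are named. So are those of the list found in no library and those that met the filter on low values through serum. Mature sequences and genome positions of the miRNAs were not used here.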

Additional observations from a re-analysis of the deposited data

Results flagged for a closer look

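Among the 5 milk libraries, miR-21 at day 175, with 3.035%, lay far from the others, its gap to the next value taking 0.878 of the whole range. MiR-146b at day 120, with 0.355%, did so as well, with 0.719 of the range, just above the critical value of 0.710 for 5 values. The gap was worked out for all 5 rows and both paralog ratios, and no other value passed. Chance flags about 5% of groups, and the milk libraries are different days of lactation rather than replicates. The share of all miRNAs with such a gap was not worked out, so the flags do not set the rows apart.

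From day 120 to day 175 miR-21 went up in milk and down in serum, the log2 change in milk exceeding that in serum by 4.65. MiR-146b went down in milk and up in serum, with a log2 change in milk minus that in serum of -2.46. Each compares 1 library per fluid and day, and these differences were not tested.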

How the results depend on the processing

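Without replicates of a day, the results rest on single libraries, and the depth behind each share is unknown from the values. The count of miRNAs called between fluids by limma, 15 of 75, became 9 of 39 with at least 0.005% asked in every library. On the reduced total it was 23 of 73, and on the centred log ratio 27 of 75. It was 0 in the limma fit that took the day as replicate block (21 at an unadjusted p under 0.05). That fit has 1 residual degree of freedom and called no miRNA, so it does not show whether the outcome for the 5 rows is stable. The split into 12 higher and 3 lower in milk became 12 and 11 on the reduced total and 11 and 16 on the centred log ratio. With each library left out it was 0 in every case, at 1 residual degree of freedom, with 14 to 24 at an unadjusted p under 0.05, the lone library of a fluid being assumed to vary like the other fluid. Without a mean-variance trend, chosen after seeing the data, it was 14. Limma called 2 of the 5 rows, miR-146a and miR-181b, on the reduced total, 1 (miR-146a) on the centred log ratio and 0 in the other settings.

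Non-overlapping miRNAs went from 27 to 41 on the centred log ratio. The mean log2 difference of the joint row miR-181c#miR-181a over all libraries reversed to -0.46 on the reduced total and to -0.37 on the centred log ratio, which by construction lower the differences of all miRNAs alike. The log2 difference of the ratio of miR-181b to the joint row was -1.58 with the 4 libraries of days 120 and 175 alone, and ranged from -1.70 to -1.34 with each library left out. These designs are too small to pass the threshold. For miR-146a to miR-146b the range was -4.15 to -2.47.

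Of 19 steps of the rows in milk, 7 passed 2-fold, where between 45.2% and 57.1% of all miRNAs did at each step. On the centred log ratio 10 passed, with 0.01 as pseudocount 6, and at the limit of 1.5-fold 11. In serum 0 passed 2-fold, against 34.9% of all miRNAs, 3 passed 1.5-fold, and 1 (miR-21) passed 2-fold on the reduced total. Over all steps, the share of all miRNAs was not taken in these other settings. Their counts thus do not compare the rows with other miRNAs. Of 10 milk to serum ratios by day, 5 passed 2-fold as deposited, against 65.5% of all miRNAs at day 120 and 70.3% at day 175. On the reduced total 8 passed, against 72.2% of all ratios, and on the centred log ratio 8, against 70.6%.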
